A study of Homo sapiens with 6 samples.

Results

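The positions described here are eIF4B cross-link positions in the 5′ UTR that lie more than 50 nt upstream of the start codon. They were found in eIF4B iCLIP of DoHH-2, a diffuse large B-cell lymphoma (DLBCL) cell line, and of GM01953, a control B-cell line. iCLIP maps cross-linked RNA to a single nucleotide, because reverse transcription stops next to the base that carries the cross-linked protein. Members were taken on the strand of the GENCODE release 44 MANE Select transcript, the single reference transcript chosen for each coding gene, and histone genes were left out. DoHH-2 had 54324 such positions of 1179243 in the table, with 91404 of 2033156 cDNA counts. GM01953 had 6837 of 78474 positions, with 11983 of 167197 counts.

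Both cell lines were handled alike, with the same number of cells cross-linked by 150 mJ/cm2 UVC, digestion with 0.6 U RNase I and immunoprecipitation with 10 µg of eIF4B antibody. Neither line was otherwise treated, and they are different lines, not an isogenic pair. By the labels DoHH-2 has 4 replicates and GM01953 has 2. The paper states that biological replicates with few reads were merged to give these 4 and 2. The values used here are a table of pooled replicates for each line. No SD and no test between the lines can therefore be given, and the 95% intervals below cover counting error only. Fewer mRNA molecules of a gene and less eIF4B on each molecule cannot be told apart from these counts. Below, the mRNA counts of a gene are its iCLIP counts over the whole mRNA, not a measure of mRNA level. The labels fit the B-cell markers, since MS4A1, CD79A, CD79B, PAX5 and CD74 each had counts over their mRNAs in both lines. CD74 had 945 counts in DoHH-2 against 333, PAX5 358 against 43 and MS4A1 12 against 143. The 5 T-cell, 5 myeloid, 4 erythroid and 4 epithelial markers were at 0 in both lines.

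As background, the small ribosomal subunit joins an mRNA at the cap and scans through the 5′ UTR until it meets a start codon. The helicase eIF4A opens structure on the way, and eIF4B is known to stimulate eIF4A. AUG codons in the 5′ UTR can start short upstream open reading frames, which usually lower translation of the main reading frame and which let some stress mRNAs be translated when initiation is impaired.

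The highest single positions show what the members look like in sequence. Each stretch below is 25 nt of the GRCh38 reference in the direction of the mRNA, written as DNA, with the cross-linked base in capitals. The first 4 hold the highest counts of DoHH-2 (a further TUBB position with a neighbouring window is left out), and the rest are among the 5 highest of GM01953.
ATF5, chr19:49929216-49929240, plus strand, exon 1 of 3: tcggatcacagtCtcttctcactac
TUBB, chr6:30720359-30720383, plus strand, exon 1 of 4: aaccttcctgccGtcgcgtttgcac
TUBB, chr6:30720399-30720423, plus strand, exon 1 of 4: tctggggcgcatTccaaccttccag
ENO1, chr1:8878633-8878657, minus strand, exon 1 of 12: tctcgccggcttTacgttcacctcg
CANX, chr5:179699022-179699046, plus strand, exon 1 of 15: ctctctctttacTgcggcgcggggc
ASF1B, chr19:14136558-14136582, minus strand, exon 1 of 4: agttctcggagaGaagaggcgggag
ACTB, chr7:5530575-5530599, minus strand, exon 1 of 6: cgccgagaccgcGtccgccccgcga
EIF4G2, spliced across exons 1 and 2 of 22 on the minus strand of chromosome 11: cggtgaaggtatTtcatttctcctg

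The ATF5 position lay 24 nt from the annotated first base and had 146 counts in DoHH-2 and 1 in GM01953. The TUBB positions, at nt 20 and 60, had 145 and 100 counts in DoHH-2 against 13 and 6 in GM01953, and the ENO1 position at nt 42 had 89 against 10. ATF5 encodes a stress transcription factor, TUBB a β-tubulin and ENO1 a glycolytic enolase. The ACTB position, in the mRNA of β-actin, had 61 against 21, and the EIF4G2 position had 41 against 28. EIF4G2, an eIF4G-like initiation factor, is annotated with a GTG start codon. The CANX and ASF1B positions had more counts in GM01953 despite its lower depth, with 22 against 2 and 21 against 6. They held 84.6% and 91.3% of the member counts of these genes in GM01953, and 3.77% and 20% in DoHH-2. CANX encodes a chaperone of the endoplasmic reticulum and ASF1B a histone chaperone. The highest member of GM01953 lay in RAD21, a cohesin subunit gene on chromosome 8, at nt 64 of the mRNA, with 73 counts there and 62 in DoHH-2.

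Of 18966 MANE Select transcripts outside the histone genes, 15532 had a 5′ UTR long enough to hold a member, with 2908081 bases in all. Their median 5′ UTR was 170.0 nt. Members were found in 6109 genes of DoHH-2 and 2564 of GM01953, and 2256 genes had members in both. Most counts per gene were low, with a median of 5.0 per gene with members in DoHH-2 and 2.0 in GM01953, and 1036 and 79 genes reached 20 counts. With DoHH-2 thinned to the total of GM01953, 34.6 such genes would be expected there, fewer than the 79 of GM01953. Single-count positions made up 76.1% of members in DoHH-2 and 62.1% in GM01953. The lines shared 2209 positions, which are 4.07% of the DoHH-2 members and 32.3% of the GM01953 members. The authors' false discovery rate (FDR), which iCount estimates by placing the counts of a gene at random, was below 0.05 for 21605 members of DoHH-2 (39.8%, against 21.5% of all positions) and for 2932 members of GM01953 (42.9%, against 36.6%).

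The region far upstream of the start codon held a larger share of the mRNA counts in GM01953 than in DoHH-2. It took 8.46% of mRNA counts in DoHH-2 (95% Wilson interval 8.41 to 8.51) and 13.9% in GM01953 (13.6 to 14.1). Compared per length on the same transcripts, where a position in several transcripts counts in each, it had 31.5 counts per kb in DoHH-2 and 4.13 in GM01953. In DoHH-2 the window of 50 nt to each side of the start codon had 47.8 counts per kb, the coding sequence (CDS) 14.4, the stop codon window 28.6 and the 3′ UTR 10.8. In GM01953 these densities were 5.62, 1.19, 2.38 and 0.606. The order of the densities was thus start codon window, upstream 5′ UTR, stop codon window, CDS and 3′ UTR in both lines. The upstream density was 2.18 times that of the CDS in DoHH-2 (2.17 to 2.20) and 3.47 times in GM01953 (3.39 to 3.54). Over positions with an FDR below 0.05 the ratios lay closer together, at 3.26 and 3.47. The limit of 50 nt did not cut through a step in the profile, since the 10 nt just inside it had 59.9 counts per kb in DoHH-2 and 7.11 in GM01953, and the 10 nt just outside it 60.5 and 7.49.

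Counts were nearly absent just before exon junctions, in both lines. In the 10 nt before a junction, counts were at 0.0520 of an even spread of each gene's counts over its own upstream 5′ UTR in DoHH-2 and at 0.0277 in GM01953. Between 11 and 20 nt before it they were at 0.0587 and 0.0306, and between 21 and 30 nt before it at 0.173 and 0.102. In the first 10 nt after a junction they were at 1.84 and 2.06. The CDS of the same transcripts had the same shape, with 0.0823 and 0.114 in the 30 nt before a junction and 1.38 and 1.32 in the 30 nt after it. The cause was not tested. Of the eligible transcripts, 21.6% had a junction in the upstream 5′ UTR, and 5.65% of its bases lay within 30 nt before one. With these bases left out everywhere, the density ratio to the CDS was 1.97 in DoHH-2 and 3.16 in GM01953.

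Counts lay closer to the cap in DoHH-2 than in GM01953. In DoHH-2 the density was highest close to the cap and lower further in, at 65.8 counts per kb between 21 and 30 nt, 42.1 between 51 and 75 nt and 13.6 between 501 and 1000 nt. In GM01953 it was 5.34, 5.88 and 2.85 at these distances. In DoHH-2 44.1% of the member counts lay in the first 50 nt, and in GM01953 29.3%, and the median count lay 62 and 95 nt from the annotated first base. On the 8670 transcripts with at least 100 nt of upstream 5′ UTR, the first 50 nt had 39.3 counts per kb and the rest 21.7 in DoHH-2, a ratio of 1.81 (1.78 to 1.84). In GM01953 they had 3.40 and 3.64, a ratio of 0.937 (0.885 to 0.990), which was 1.003 without the first 10 nt.

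Short 5′ UTRs carry more counts per kb, so the same distances were also read against an even spread of each gene's counts over its own upstream 5′ UTR. Read this way, the values of DoHH-2 went from 0.911 (0.892 to 0.929) in the first 10 nt to 1.22 (1.20 to 1.25) between 31 and 40 nt, and lay between 0.866 and 0.952 from 76 to 1000 nt. GM01953 had 0.707 (0.657 to 0.760) in the first 10 nt, 1.02 (0.9501 to 1.093) between 31 and 40 nt and 1.16 (1.10 to 1.21) between 51 and 75 nt, and it stayed between 1.01 and 1.13 up to 1000 nt. The ratio of the first 50 nt to the rest was 1.28 in DoHH-2 and 0.727 in GM01953, and over genes with members in both lines it was 1.304 and 0.724. In both lines the first 10 nt thus had fewer counts than an even spread gives. The cap was taken as the annotated first base, and in the 50 nt before that base there were 12.1% of the counts of the pair of windows in DoHH-2 and 13.2% in GM01953.

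**Figure D1:**
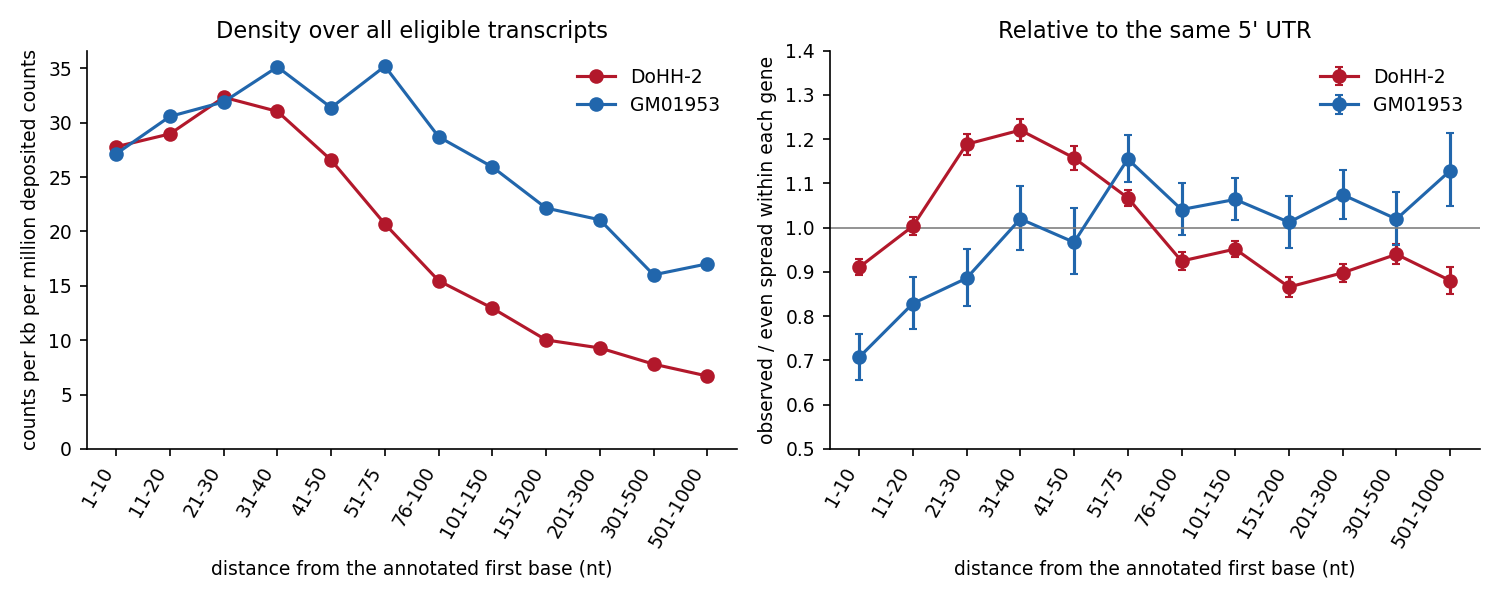
Density of member counts by distance from the annotated first base of the mRNA (nt, x axis), as counts per kb over all eligible transcripts, scaled to the deposited counts of each line (left) and as the ratio to an even spread of each gene's counts over its own upstream 5′ UTR (right, bars are 95% counting intervals, axis from 0.5). On the right DoHH-2 is highest at 1.22 between 31 and 40 nt, and GM01953 starts at 0.707 and lies above DoHH-2 from 51 to 1000 nt.

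Pooled over transcripts, short 5′ UTRs had a higher upstream density relative to the CDS than long ones. In the shortest quartile (up to 98.0 nt) the upstream density was 5.73 times the CDS density in DoHH-2 and 5.94 times in GM01953. In the longest quartile (over 293.0 nt) it was 1.84 and 3.60 times. Medians over single genes did not show this order. For genes with at least 20 counts in both regions together, the upstream part of the summed upstream and CDS density was taken. From the shortest to the longest quartile its median was 63.3%, 70.3%, 65.0% and 62.8% in DoHH-2, and 37.5%, 78.8%, 74.4% and 80.5% in GM01953. In the shortest quartile the lower quartile over genes was 0.0% in both lines, and GM01953 had 85 genes there. How far short windows with few counts lower these medians was not tested. The quartile of 5′ UTRs richest in GC (over 73.3%) had the lowest ratio to the CDS in both lines, 1.52 in DoHH-2 and 3.11 in GM01953. In DoHH-2 the other quartiles had 2.60, 2.49 and 2.17 from low to high GC, and in GM01953 3.15, 4.15 and 3.64. Only DoHH-2 thus had its ratios in the order of GC, and how far the difference comes from the genes of each quartile was not tested.

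Within a 5′ UTR, cross-links lay in stretches with less GC than the bases around them offered. The 21 nt centred on a member held 60.8% GC in DoHH-2, weighted by count, where the same 5′ UTRs offered 63.3%, a difference of -2.48 percentage points (-2.80 to -2.16). In GM01953 these values were 63.1%, 65.5% and -2.43 (-3.29 to -1.56). Windows with under 30% GC had 1.37 times the counts of an even spread in DoHH-2 (1.32 to 1.41) and 1.31 times in GM01953 (1.19 to 1.45). Windows with at least 90% GC had 0.594 times (0.567 to 0.623) and 0.578 times (0.517 to 0.644). The difference sat mostly in the cross-linked base and its nearest neighbours. With the 5 central bases left out it was -0.820 points in DoHH-2 (-1.13 to -0.507) and -0.708 in GM01953, where the interval (-1.56 to 0.146) includes 0.

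The base next to the cross-link was the clearest sequence feature of the members, and it was alike in both lines. Uracil stood on the 3′ side of the cross-linked base for 38.1% of counts in DoHH-2 and 39.6% in GM01953, where 20.7% and 19.1% of the bases on offer were uracil. Guanine stood there for 16.1% and 11.2%, against 31.8% and 31.5% on offer. The cross-linked base itself was adenine for 6.27% of counts in DoHH-2 and 4.68% in GM01953, where 16.2% and 15.5% were on offer. It was guanine for 37.3% and 36.2%, and uracil, also above its share on offer, for 29.2% and 27.8%. On the 5′ side of the cross-linked base uracil stood for 32.7% and 30.1% of counts. Further along, the lines parted. From 6 to 25 nt on the 3′ side, cytosine averaged 32.3% in DoHH-2 against 31.3% on offer, and 38.4% in GM01953 against 33.9%. Guanine averaged 31.6% and 28.2% there. On the 5′ side, from 25 to 6 nt before the cross-link, cytosine was at 30.6% and 33.0%, slightly under what was on offer in each line. UV cross-links uracil with ease, and the base preference of the method and that of eIF4B cannot be told apart here.

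Averaged over the 10 nt to each side, counts near upstream AUGs lay close to an even spread, with peaks and dips at single bases of the codon. Of the eligible 5′ UTRs, 49.9% held at least 1 AUG before the start codon, and of the 6417 genes with members in either line 51.3% did. Within 10 nt of the A of an upstream AUG, counts were at 1.02 of an even spread in DoHH-2 (0.996 to 1.04, 6635 counts) and at 0.928 in GM01953 (0.863 to 0.996, 717 counts). At the base just before the A the ratio was 2.09 in DoHH-2 and 2.31 in GM01953 (94 counts), and at the U of the codon it was 0.343 and 0.0978. The start codons had the same shape, with 1.95 and 2.36 at the base before the A and 0.411 and 0.0799 at the U, each relative to the mean density within 50 nt. AUGs in a strong context, with a purine 3 nt before and a G right after the codon, had 0.945 (0.900 to 0.993) and 0.770 (0.641 to 0.917). Inside upstream reading frames counts were at 0.985 (0.969 to 1.001) and 0.942 (0.897 to 0.988). Other triplets of the same letters had values between 1.02 and 1.09 in DoHH-2 and between 0.971 and 1.07 in GM01953, and the near-cognate codon CUG had 0.975 and 0.974. The highest of the 16 triplets examined was UUU, with 1.35 (1.33 to 1.36) in DoHH-2 and 1.36 (1.313 to 1.398) in GM01953. Set against its own surroundings 11 to 50 nt away, the density within 10 nt was 0.992 (0.966 to 1.02) at upstream AUGs and 1.04 (1.02 to 1.06) at the start codons of DoHH-2. In GM01953 these ratios were 0.962 (0.887 to 1.04) and 1.02 (0.967 to 1.07).

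Pooled over genes, those with upstream AUGs had fewer counts in the upstream 5′ UTR relative to the CDS. The ratio of densities was 3.42 without an upstream AUG, 2.01 with 1 and 1.90 with at least 2 in DoHH-2, and 5.33, 3.31 and 3.07 in GM01953. This held within each quartile of 5′ UTR length. In the shortest quartile the ratio was 6.21 without and 2.97 with upstream AUGs in DoHH-2, and 6.53 and 1.90 in GM01953. In the longest it was 2.44 and 1.75, and 6.06 and 3.18. The shortest quartile with upstream AUGs had only 37 counts in GM01953. Over single genes the difference was small in DoHH-2, where the upstream part of the summed density had a median of 67.1% without, 63.6% with 1 and 63.3% with at least 2 upstream AUGs, and in GM01953 it was 79.6%, 65.1% and 74.3%.

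**Figure D2:**
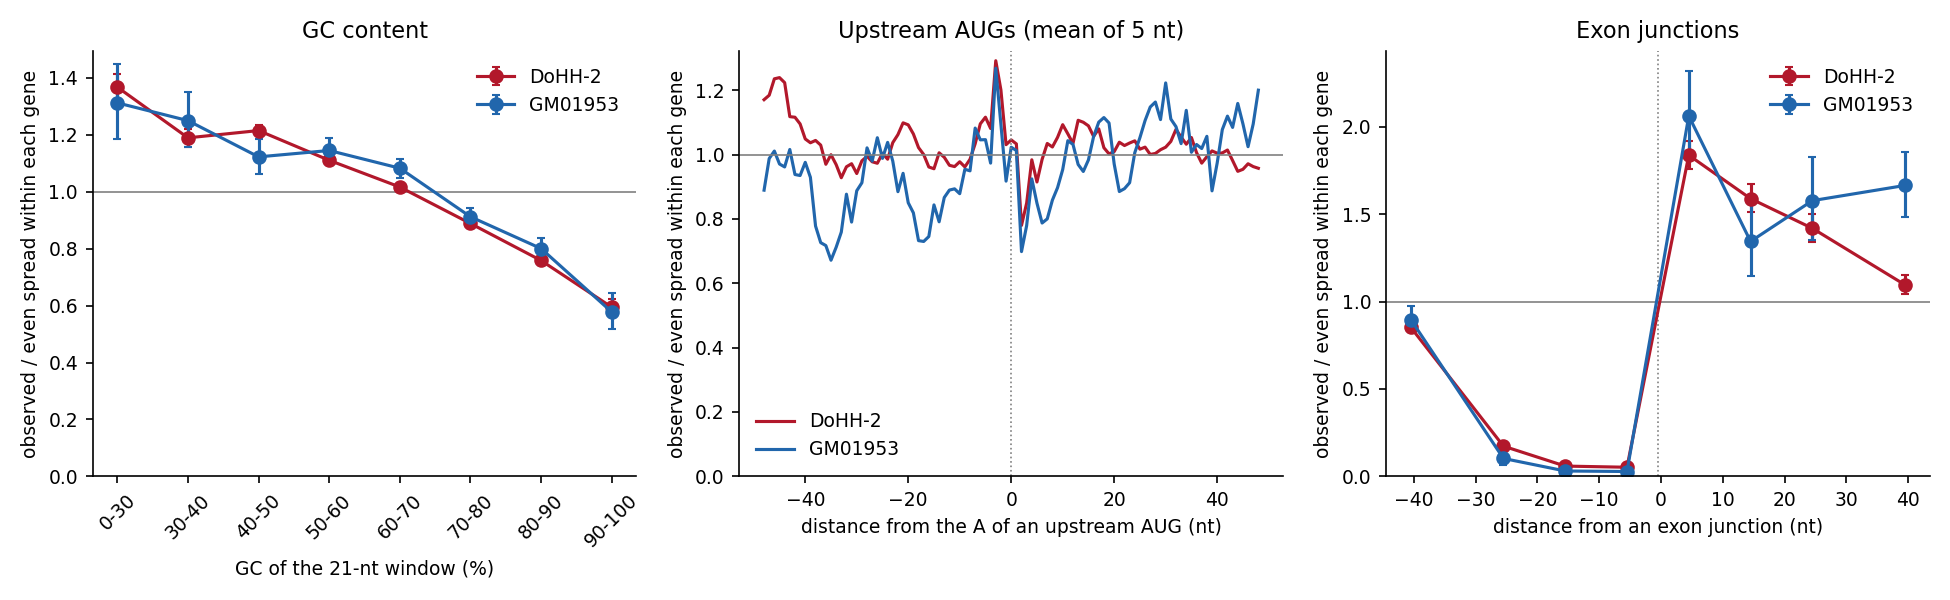
Member counts relative to an even spread within each gene (y axis, from 0) by GC content of the 21-nt window (percent), by distance from the A of an upstream AUG (nt, running mean of 5 nt) and by distance from an exon junction (nt, positive after the junction). Bars are 95% counting intervals. The ratio is lowest in the windows with the most GC, stays near 1 around upstream AUGs apart from base-scale peaks and dips at the codon itself, and drops to 0.0520 and 0.0277 just before a junction.

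The genes with the most member counts in DoHH-2 were TUBB with 2030 and ATF5 with 1788. HNRNPA2B1 (851), an RNA-binding protein gene, and ENO1 (817) followed, then SOX4 (671), a transcription factor gene, TUBA1B (661), an α-tubulin gene, and PTMA (557), MIF (546), PGK1 (497) and BCL2 (497). PGK1 encodes a glycolytic kinase, MIF a cytokine, PTMA a small nuclear protein and BCL2 an inhibitor of apoptosis. In GM01953 they were TUBB (158), PFN1 (148), an actin-binding protein gene, EIF4G2 (133), RAD21 (105), ENO1 (87), XPO1 (81), a nuclear export receptor gene, ACTB (78), the growth factor gene TGFB1 (75), HNRNPA0 (75) and SET (67), a histone chaperone gene. Only TUBB and ENO1 are on both lists, but TUBA1B, with 66 counts in GM01953, fell just short. Of the other genes on the DoHH-2 list, ATF5, HNRNPA2B1 and PGK1 had 55, 50 and 48 counts in GM01953. BCL2, PTMA, MIF and SOX4 had 28, 21, 20 and 20. Several of these genes, TUBB, PTMA, HNRNPA2B1 and ENO1 among them, have near-identical copies or processed pseudogenes, and how reads with several matches were treated is not given in the sources used here.

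TUBB took a like share of the counts in both lines. In CPM, which scales the counts of each line to its deposited total, it was at 998.4 in DoHH-2 (955.5 to 1043) and 945.0 in GM01953 (803.4 to 1104). The upstream 5′ UTR held 45.7% of the TUBB mRNA counts in DoHH-2 and 55.6% in GM01953, spread over 103 and 50 positions. ENO1 was at 401.8 CPM in DoHH-2 and 520.3 in GM01953. Its highest interval of 5 nt was nt 41 to 45 in both lines, with 16.5% of its member counts in DoHH-2 and 23.0% in GM01953. DoHH-2 also had 11.8% in the first 5 nt, where GM01953 had 3.45%. HNRNPA2B1 was at 418.6 and 299.0 CPM, with 55.1% of its member counts in the first 50 nt in DoHH-2 and 26.0% in GM01953.

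ATF5 was 2.67 times higher in DoHH-2 (2.04 to 3.56), with 879.4 CPM against 329.0. Its counts over the whole mRNA were 2.43 times higher, so the share of ATF5 mRNA counts in the upstream 5′ UTR was close in the lines, at 46.5% (44.9 to 48.0) and 42.3% (34.2 to 50.9). ATF5 has a pair of upstream AUGs that are known for delayed re-initiation under stress, and they are shown here, with the AUG in capitals and 11 nt to each side, because the counts around them can be set against them.
ATF5 upstream AUG at nt 70, chr19:49929263-49929287, plus strand, exon 1: tagccccggccATGgctctgtagcc
ATF5 upstream AUG at nt 192, spliced across exons 1 and 2: ttgctgcagccATGgagtcttccac

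The first opens a frame of 3 codons, and the second a frame of 59 codons that runs past the start codon of ATF5. Within 15 nt of the first there were 134 counts in DoHH-2, 0.602 of an even spread over the gene. Within 15 nt of the second there were 144, or 0.647. In GM01953 these were 6 and 1 counts of 55. Before the first AUG lay 818 of the 1788 DoHH-2 counts, and inside the second frame 458. The second AUG lies at the end of exon 1, which ends at nt 196, and each interval of 5 nt from nt 156 to 195 held at most 4 counts in DoHH-2. The stretch before a junction was nearly empty over all genes together, so the low value there cannot be read for the AUG itself.

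Scaled to all deposited counts, more genes were at least 2-fold higher in GM01953 than in DoHH-2. Of 1186 genes with at least 20 member counts in the lines together, 129 (10.9%) were at least 2-fold higher in DoHH-2 and 400 (33.7%) in GM01953, with a count of 0 set to 3. Of the 1186, 197 had 0 counts in GM01953 and 2 in DoHH-2. At the lower depth of GM01953, 3 counts stand for a higher CPM. Only those of the 197 with many DoHH-2 counts could thus be called higher in DoHH-2, which holds down the 129. The counting interval lay wholly past 2-fold for 7 and 136 genes. Over the whole mRNA of the same genes the calls were 231 and 165. Over the whole mRNA of all 7917 coding genes with at least 20 counts, 23.9% were 2-fold higher in DoHH-2 and 14.1% in GM01953. Scaled to the upstream 5′ UTR counts alone, the calls were 280 and 233, so 54.6% of them lay higher in DoHH-2 in place of 24.4%. Without the highest position of each gene in each line, 134 genes were 2-fold higher in DoHH-2 and 185 in GM01953, of 876 genes. The counts of the 1186 genes in the lines had a Spearman correlation of 0.281 across genes, which share a library in each line and are not replicates.

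The 5 genes with the largest computed fold toward DoHH-2 each had a single count in GM01953. The 197 genes without counts in GM01953 were entered at 3 counts, which gives a lower bound and ranks them below such genes. HNRNPH1, chosen after its values were seen, had 80 counts against 0. Its ratio was 2.19 with the 0 entered as 3, and its counting interval, which uses the 0 itself, began at 1.74. The 5 genes with a single count there were NME1, CHST15, PSMA4, RPSA and SNRPD3, with 144, 143, 130, 93 and 92 counts in DoHH-2. NME1 had a ratio of 11.8 (interval 2.09 to 471) and SNRPD3 of 7.57 (1.32 to 302). NME1 encodes a nucleoside diphosphate kinase, CHST15 a sulfotransferase, PSMA4 a proteasome subunit, RPSA a ribosomal protein and SNRPD3 a splicing protein. Toward GM01953 the largest were UGCG with 19 counts against 1, CCND2, a cyclin gene, with 43 against 0, AUTS2 with 20 against 0, TRAF3 with 17 against 5 and LRCH1 with 16 against 5. In GM01953 a single position held 13 of the 20 counts of AUTS2 and 9 of the 16 of LRCH1. The highest position held 6 of 17 in TRAF3, 6 of 43 in CCND2 and 3 of 19 in UGCG. UGCG encodes an enzyme of glycolipid synthesis and TRAF3 an adaptor of TNF receptor signalling. With 0 entered as 3 counts in DoHH-2, CCND2 was 174 times and AUTS2 81.1 times higher in GM01953. Their counting intervals, which use the 0 itself, began at 136 and 60.04 times. The CCND2 mRNA had no count at all in DoHH-2 and 65 in GM01953, whereas AUTS2 had 127 mRNA counts in DoHH-2 outside the upstream 5′ UTR and 23 in GM01953 in all.

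Setting each gene's member counts against its own mRNA counts compares regions within a gene. Of 845 genes with at least 20 mRNA counts in each line, the upstream share was higher in GM01953 for 449, higher in DoHH-2 for 349 and equal for 47. The intervals of the shares did not overlap for 180 genes higher in GM01953 and 14 higher in DoHH-2. No such count is given for the other regions of these genes, so the 180 and 14 are descriptions only. The medians lay close, at 6.77% and 8.0% for DoHH-2 and GM01953, while the pooled shares were 10.97% and 17.07%. TGFB1 had 94.9% of its mRNA counts in the upstream 5′ UTR in GM01953 (75 of 79) and 64.0% in DoHH-2 (73 of 114). XPO1 had 80.2% against 44.5%, HNRNPA0 72.1% against 23.1%, RAD21 67.3% against 16.0%, EIF4G2 67.2% against 28.2% and SET 31.3% against 8.56%. In RAD21 a single position held 73 of the 105 member counts of GM01953. All of these, TGFB1 included, are named for being among the 10 genes with the most member counts in GM01953. PTMA and MIF, given next, are named for the same reason in DoHH-2. Such a choice favours a higher share in the line used to choose, so these genes are examples only. The other way lay PTMA, with 43.1% in DoHH-2 (40.4 to 45.8) and 20.6% in GM01953 (13.9 to 29.4), and MIF, with 19.9% (18.4 to 21.4) and 4.28% (2.79 to 6.52). MIF was 2.25 times higher in DoHH-2 in its upstream 5′ UTR, while its counts over the whole mRNA were at 0.483 of GM01953.

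Gene lists were described by their counts and medians beside all genes, for which the median upstream share was 6.06% in DoHH-2 and 8.0% in GM01953 among genes with at least 20 mRNA counts. The share is not scaled to length. At the same density, a longer upstream 5′ UTR or a shorter rest of the mRNA gives a higher share. Of all 1186 genes compared, 10.9% were 2-fold higher in DoHH-2 and 33.7% in GM01953, and with few genes in each list the list counts below are descriptions only. Of the 14 initiation factor genes in the list, 7, among them EIF4A1, EIF4E and EIF4B, had 5′ UTRs of 50 nt or less and no member. Of the others, 5 reached 20 counts and 3 of these were 2-fold higher in GM01953 and none in DoHH-2. EIF4G2 was at 416 counts in DoHH-2 and 133 in GM01953 (3.89 times higher in GM01953 when scaled to deposited counts, 3.17 to 4.74), PABPC1, the poly(A)-binding protein gene, at 222 and 44, and DDX3X, a helicase gene, at 34 and 6, whose interval includes no difference. The EIF4G2 position shown above lies at nt 227, just after the end of exon 1 at nt 222, where counts lay above an even spread over all genes together.

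The list of stress mRNAs had a median upstream share of 30.4% over 12 genes in DoHH-2, with a range from 2.95% in EPRS1, a tRNA synthetase gene, to 55.7% in SLC35A4. In GM01953 only ATF4, ATF5 and EPRS1 had enough mRNA counts, at 33.3%, 42.3% and 0%. EPRS1, CEBPB and GADD45A have no AUG in the upstream 5′ UTR of the transcript used. Of the list, 1 of 7 genes, ATF5, was 2-fold higher in DoHH-2 and none in GM01953. ATF4, the main transcription factor of the integrated stress response, had 169 and 7 counts, with 52 of the 169 within 10 nt of its first upstream AUG at nt 25, and 6 and 3 within 10 nt of those at nt 87 and 186. The end of its first exon is at nt 190. EIF5, an initiation factor gene with 3 upstream AUGs, had 119 and 10 counts. BCL2 has 8 upstream AUGs, and its 497 DoHH-2 counts spread over 240 positions, with between 1 and 28 within 10 nt of each AUG.

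The polyamine genes had the highest median share beside the iron list, 45.2% over 6 genes in DoHH-2 and 56.3% over 2 in GM01953. The share is not scaled to length, and the 5′ UTRs of the 6 genes ran from 75 to 590 nt, beside a median of 170.0 nt over eligible transcripts. ODC1, the first enzyme of the pathway, had 153 and 14 counts, AZIN1, which protects it from breakdown, 145 and 20, and AMD1, which makes the aminopropyl donor, 89 and 8. The single upstream AUG of AMD1 at nt 12, whose frame of 6 codons senses polyamines, had 8 counts of 89 within 10 nt in DoHH-2.

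FTH1 and FTL encode the chains of ferritin, the iron store, and an iron response element close to the cap binds repressor proteins when iron is low. FTH1 had 79 and 26 counts in DoHH-2 and GM01953, and FTL 136 and 29. The upstream 5′ UTR held 60.8% and 86.7% of the FTH1 mRNA counts and 37.9% and 58.0% of the FTL counts. The other 3 eligible genes of this list had no counts. The word CAGTG of the element's loop occurs once in the upstream 5′ UTR of each and is shown in capitals with 11 nt to each side, because it places the counts relative to the element.
FTH1, loop word at nt 45, chr11:61967575-61967601, minus strand, exon 1: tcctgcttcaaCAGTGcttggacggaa
FTL, loop word at nt 39, chr19:48965336-48965362, plus strand, exon 1: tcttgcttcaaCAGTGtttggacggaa

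Within 15 nt of the loop word FTH1 had 19 counts in DoHH-2, 1.09 of an even spread, and 7 in GM01953, 1.22 of it. FTL had 6 counts, 0.188 of an even spread, and 4, 0.587 of it. Before the word lay 26 of 79 and 6 of 26 counts in FTH1, and 34 of 136 and 14 of 29 in FTL. Both mRNAs have many processed pseudogenes.

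Among 22 proliferation and survival genes, 18 had members in DoHH-2 and 11 in GM01953, and 3 of 11 with at least 20 counts were 2-fold higher in GM01953 and none in DoHH-2. BCL2 had 497 and 28 counts, MYC, annotated with a CTG start codon, 147 and 12, and CDK4 66 and 3, a ratio of 1.81 with an interval of 0.593 to 8.997. In the B-cell list the median upstream shares were 3.88% over 8 genes and 3.96% over 6. EBF1 had 49 and 1 counts, POU2AF1 43 and 13 and BTK 32 and 5. EBF1 and POU2AF1 encode a transcription factor and a coactivator of B cells, and BTK a kinase of the B-cell receptor.

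Genes for RNA-binding proteins of the hnRNP and SR families had members in 15 of 15 eligible genes in DoHH-2 and 13 in GM01953, and 3 of 14 were 2-fold higher in DoHH-2 and 4 in GM01953. The median upstream share was 21.1% over 15 genes and 15.7% over 12. SRSF2, a splicing factor gene, had 275 counts in DoHH-2 and 7 in GM01953 (3.23 times higher in DoHH-2, 1.55 to 8.11), and HNRNPD 212 and 33. In the chromatin and HMG list 3 of 13 were higher in each direction. HMGB1 had 318 and 10 counts (2.62 times higher in DoHH-2, 1.403 to 5.506), ANP32E 272 and 7 (3.20 times, 1.53 to 8.02) and NPM1 218 and 22.

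Of the elongation factors and mRNAs with a terminal oligopyrimidine tract, 6 reached 20 counts, and 2 of these were 2-fold higher in GM01953. RACK1 had 260 and 13 counts and TPT1 175 and 15. Of the chaperones, 3 of 9 were higher in DoHH-2 and 1 in GM01953, with median shares of 5.70% over 12 genes and 5.03% over 10, close to those of all genes in DoHH-2 and below them in GM01953. HSPA5, the chaperone of the endoplasmic reticulum, had 348 and 13 counts, a ratio of 2.20 (1.27 to 4.18), HSP90AB1 285 and 35, and HSPA8 154 and 3, a ratio of 4.22 (1.42 to 20.7). Of the housekeeping genes, 1 of 10 was higher in DoHH-2 and 3 in GM01953. GAPDH had 51 and 16 counts and ACTB 263 and 78, and the ACTB ratio was 3.61 toward GM01953 (2.76 to 4.66).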

How the data were processed

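eIF4B iCLIP values were analysed as deposited, in 1 table per cell line. For the deposited cDNA counts, the authors used a BBMap function against PCR duplicates and Je to split experiments, cut off adapter and barcode bases, aligned with HiSat2 and called cross-link positions with iCount after pooling all replicates of a line. HISAT2 and GRCh38 are also named in the submitters' processing notes. Versions, the annotation release used with iCount and the treatment of reads with several matches are not given in the sources used here. The counts are whole numbers and were not normalized. The FDR, a p-value adjusted by iCount, was deposited by the authors beside each count.

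Positions were read as counted from 0, since base composition matched between the strands only when read so, and a position listed for several genes was counted once. They were placed on GENCODE release 44 MANE Select transcripts with Python 3.11.15, numpy 2.4.6, pandas 2.3.3, scipy 1.17.1 and pysam 0.24.0, and figures were drawn with matplotlib 3.10.9. Mitochondrial transcripts were left out. DoHH-2 had 2033156 counts and GM01953 167197, so precision is lower in GM01953. Shares have Wilson and ratios exact binomial 95% intervals. An even spread is the expected count if the counts of a gene fell evenly over the bases of its upstream 5′ UTR. The interval of a GC difference treats each count as a single draw. With 1 pooled table per line no test was run.

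Named genes are the 10 with the most member counts in each line, the genes of the 5 highest positions in each line, the 5 with the largest fold in each direction, the 3 with the most counts in each gene list, CDK4, EIF4B, ACTB and GAPDH. Any gene named beyond this rule was picked with its values in view. The members, gene lists and measures were chosen with earlier results of these data known. The cap ratio within genes, the ratio near upstream AUGs and the GC difference were tested on simulated data with planted differences. The other measures were not. Sequences are from GRCh38.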

Additional observations from a re-analysis of the deposited data

Results flagged for a closer look

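The density ratio of the first 50 nt after the cap to the rest of the upstream 5′ UTR lay on opposite sides of 1 in the cell lines. Over all transcripts with at least 100 nt it was 1.81 in DoHH-2 and 0.937 in GM01953. With each gene compared with an even spread over itself it was 1.28 in DoHH-2 and 0.727 in GM01953. The difference between the cell lines was not tested, since each line has a single pooled table. The deposited depth moved with it, at 12.2 times the counts in DoHH-2, and its part in the result was not tested.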

How the results depend on the processing

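No paired analysis was possible because the tables hold no column of a single replicate, and for the same reason no replicate could be left out. Replicate spread is thus unknown, and GM01953, with 79 genes of at least 20 counts, limits the comparison of single genes. Values are given for DoHH-2 and then GM01953. The share of mRNA counts (8.46% and 13.9%) was 8.64% with the longest coding transcript in DoHH-2, 10.7% with FDR below 0.05 in DoHH-2, 7.34% and 14.4% with each position counted once, 5.16% and 8.88% for positions over 100 nt upstream, and 7.83% and 13.2% without the 10 genes with the most counts. The density ratio to the CDS (2.18 and 3.47) was 3.26 with FDR below 0.05 in DoHH-2, 1.77 and 3.55 with each position once, 1.88 and 3.20 as the median over genes, 2.50 and 4.57 for genes with at least 20 mRNA counts, and 1.97 and 3.16 without the 30 nt before junctions. The cap ratio (1.81 and 0.937) was 1.61 with each position once in DoHH-2, 1.496 and 0.782 for at least 200 nt, and 1.92 and 1.003 without the first 10 nt, where GM01953 crossed 1. A mean over genes gave 1.17 and 0.608, but it set the first 50 nt against the whole upstream 5′ UTR and not against the rest. The cap ratio was 1.28 and 0.727 within genes, 1.22 and 0.694 within genes without the 30 nt before junctions, 1.304 and 0.724 within genes with counts in both lines, and in DoHH-2 1.75 without the 30 nt before junctions and 1.74 without TUBB. The GC difference (-2.48 and -2.43) was -1.24 and -1.12 in windows of 41 nt, -0.820 and -0.708 without the 5 central bases, and in DoHH-2 -2.16 with each position once and -2.87 for scores of at least 2. The ratio near upstream AUGs was 0.945 and 0.770 in a strong context. The 1036 and 79 genes became 2050 and 281 at 10 counts, 301 and 15 at 50 counts, 551 and 49 with FDR below 0.05, and 34.6 in DoHH-2 thinned to the GM01953 total. The 129 and 400 genes past 2-fold became 280 and 233 when scaled to upstream counts, 66 and 127 at 50 counts, 74 in DoHH-2 as a share of own mRNA, and in GM01953 1206 at 10 counts and 185 without the highest positions. Of the 1206, 469 genes had 0 counts in GM01953 and were called only because 0 is set to 3, so the 1206 is not a count of genes higher there. The same holds for 97 of the 452 called in GM01953 as a share of own mRNA, and for none of the calls under the other settings. The alternatives on junctions, the 5 central bases, the even spread within genes, TUBB and the highest positions were chosen after seeing the data. A further 16 values under the planned and 9 under these later alternatives moved by less than the counting error or, for counts of genes, by less than 1.5 times. The cause of the other shifts was not tested.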
